A study of Zea mays with 27 samples.

Results

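WRKY1 (LOC732738) and lip15 (LOC542700) are maize transcription factor genes known from stress responses, and their probes were followed over 27 2-colour cDNA microarrays of maize seedlings. All probes that the platform's gene table assigns to these genes alone were taken, which gave 2 of the 532 genes named on the array, with 5 probes for WRKY1 and 2 for lip15, or 7 of 18303 probes with values. The genes carry only LOC symbols in that table, and the names WRKY1 and lip15 (also mlip15) come from RefSeq's synonyms. The genes were chosen in part from earlier results of the same arrays, in which 1 WRKY1 probe had a wide spread and a median far above that of the array. The spread, median and side of that probe are therefore given as descriptions, with no test.

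The study compared the inbred lines B73 and Mo17 with their F1, for which Mo17 was the seed parent. Above-ground tissue was taken from 14-day-old seedlings grown under controlled conditions, in pools of 6 per genotype and replication, and no stress treatment is named in the labels. Of 10 replications 9 were kept, each with 3 arrays that joined the genotypes in pairs with the dyes alternated. A genotype is named for a single channel, F1 in Cy3 on array S1, so the arrays S1 to S27 stayed without a group. No value below compares B73, Mo17 and F1.

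WRKY factors are plant proteins that bind W-box elements in promoters through a domain with a conserved WRKY peptide and a zinc finger. The family is known for transcriptional control of defence and of responses to drought, cold and wounding. The protein lip15 is a basic leucine zipper (bZIP) factor whose transcript was described as induced by low temperature in maize seedlings. Factors of the bZIP family bind DNA as dimers through a basic region beside a leucine zipper.

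The values are log2 ratios between the channels of an array, each array centred on its median over probes, so 0 is the ratio of the array's middle probe. The numerator channel is not given, and "above" and "below" refer only to that median. A ratio carries no level, so WRKY1 and lip15 cannot be ranked by expression, and the tissue could not be checked against marker genes. In pooled tissue, a change in the number of cells of a type and a change in RNA per cell cannot be told apart. The interquartile range of an array ran from 0.40 (S9) to 1.57 (S19) on the log2 scale. Arrays of a replication share RNA pools, so correlations over arrays are given as descriptions with no p-value.

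The WRKY1 probes are called WRKY1-a to WRKY1-e here, and WRKY1-a is the probe that lies to 1 side. That it measures WRKY1 rests on the platform's gene table alone. No sequence of the spotted cDNAs was available, so whether WRKY1-a also binds other transcripts was not tested. The log2 ratio of WRKY1-a was lowest on S4 at -0.38, had a median of 1.84 (3.57-fold) and was highest on S13 at 6.70. Its median was 1.14 over S1 to S15, the 15 arrays on which at least 2% of spots repeat a single value, and 2.48 over S16 to S27, the other 12. It lay above the array median on 25 arrays and below it on S4 and S10. With a genotype named for only 1 channel, a difference between genotypes and one between dyes cannot be told apart at this probe. Neither was tested. Ratios of at least 1 (2-fold) above the median were found on 18 arrays, of at least 2 on 13 and of at least 4 on 6. The 6 arrays were S8, S13, S19, S21, S23 and S27, and no array had a ratio as far below.

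The other 4 WRKY1 probes stayed close to the array median. WRKY1-b ranged from -0.44 (S25) through a median of -0.02 to 1.30 (S19). WRKY1-c ranged from -0.74 (S19) through -0.03 to 0.81 (S6), and WRKY1-d from -0.71 (S20) through 0.08 to 1.06 (S13). WRKY1-e had its lowest value on S19 at -1.13, its median at 0.08 and its highest value on S6 at 1.16. Of the 108 values of these probes, 5 lay at least 2-fold from the median, and their highest value on any array was 1.30. S19 was thus the array on which WRKY1-b was highest while WRKY1-c and WRKY1-e were lowest.

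**Figure D1:**
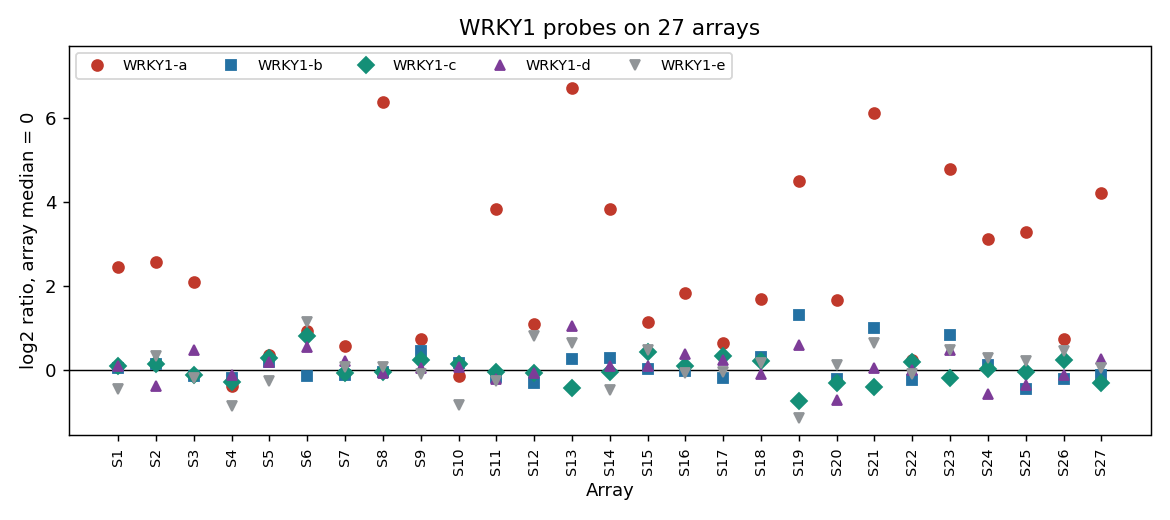
Log2 ratio (array median = 0) of the 5 WRKY1 probes on each of the 27 arrays S1 to S27, with 1 marker type per probe. WRKY1-a runs up to 6.70 on S13, while the other 4 probes stay between -1.13 and 1.30.

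WRKY1-a exceeded each of the other WRKY1 probes on 24 arrays and was never the lowest of the 5. Its log2 ratio minus the mean of the other 4 was 1.93 at the median, -0.05 at the lowest (S10) and 6.38 at the highest (S8). That difference was at least 1 on 16 arrays. On S8 the other 4 probes lay between -0.06 and 0.08, against 6.37 for WRKY1-a. On S22, where WRKY1-a had 0.25, the others lay between -0.24 and 0.20. On S4 and S10 WRKY1-a did not stand above the mean of the others.

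Within an array, WRKY1-a had a median percentile of 96.7 among all probes, from 31 on S4 to the highest rank of all on S13. It was in the top 1% on 8 arrays and in the top 5% on 15, and in the bottom 5% on none. None of the other 4 WRKY1 probes reached the top or the bottom 5% on any array. The size of the ratio of WRKY1-a went with the interquartile range of the array (Pearson r = 0.48, Spearman rho = 0.47, 27 arrays). This was not particular to WRKY1-a. The r was 0.55, 0.58, 0.38 and 0.59 for WRKY1-b to WRKY1-e, with a rho of 0.02, 0.41, 0.32 and 0.52. The part of array width in these ratios was not tested. After all arrays were scaled to the same interquartile range the median of WRKY1-a was 2.15.

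The spread of a probe is the 90th minus the 10th percentile of its log2 ratios over arrays. It was 4.99 for WRKY1-a, 1.26 for WRKY1-e, 0.87 for WRKY1-d, 0.83 for WRKY1-b and 0.66 for WRKY1-c. For lip15 it was 2.38 and 1.62. A spread of at least 1 was thus found for 4 of the 7 probes, against a background of 79.2% of all probes and 65% of the 1607 probes with 1 gene. With only 7 probes and a count that changed with the centring, nothing particular to the members is read from this share. The count was 3 with each run of 400 table rows centred on its own median, where WRKY1-e had 0.86, and 5 with arrays centred on their means. WRKY1-e and WRKY1-d are the members just inside and just outside that threshold. WRKY1-b and WRKY1-c were narrower than most genes' probes, at the 16.7th and 4.54th percentile of the spread among probes with 1 gene.

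The background for a probe above the array median on at least 90% of arrays, which takes 25, was 0.0492% of all probes and 0.124% of those with 1 gene. Counted on either side, since the direction of the ratio is not settled, it was 0.262% and 0.311%. WRKY1-a stood at that limit, and the next members were WRKY1-d and lip15-a, each with 16 arrays above. By the size of its median WRKY1-a was the 6th of all 18303 probes and the highest of those with 1 gene. By spread it was only the 493rd of all probes. No member ever held an array's most frequent value. Other probes did, so repeated values still enter the array medians, the ranks and the background shares.

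Genes with at least 4 probes give the background for the split within WRKY1. The spread of WRKY1-a was 5.87 times the median spread of its gene's other probes, against a median of 1.61 for the widest probe over 107 such genes. A ratio of at least 3 was found for 12.1% of them. The next highest ratio was 5.06, for the cellulose synthase gene CesA-8. The median of WRKY1-a lay 1.76 from the median of the gene's 5 probe medians, where the middle gene had 0.25 for its farthest probe and the next highest gene had 0.73. These values describe the probe for which the gene was chosen.

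**Figure D2:**
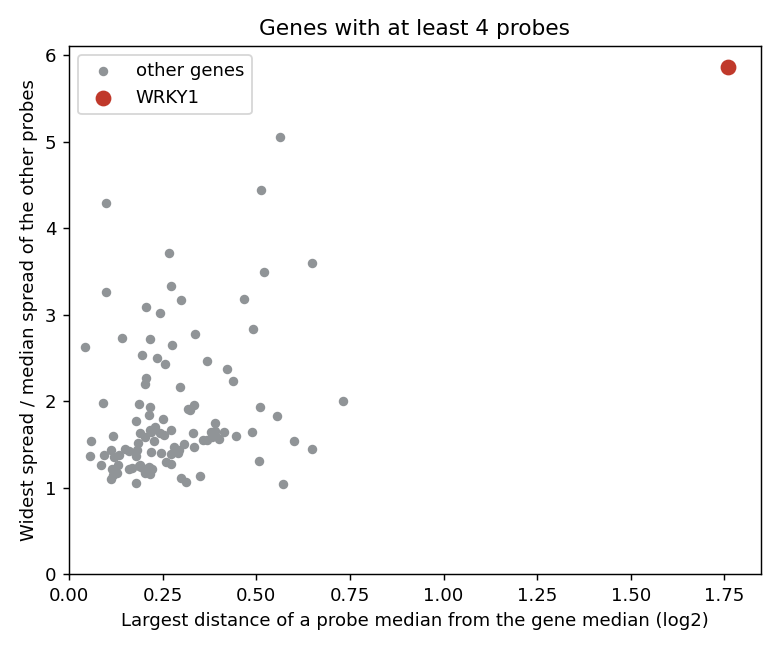
For each of the 107 genes with at least 4 probes, the largest distance of a probe's median from the gene's median (log2, horizontal axis) and the widest probe's spread divided by the median spread of the others (vertical axis, no unit). WRKY1 lies alone at 1.76 and 5.87.

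Place on the array was examined through the order of spots in the table, in which runs of 400 spots recur. WRKY1-a and WRKY1-d lay in the same run, 10 rows apart, and had medians of 1.84 and 0.08. The median of that run of spots stayed between -0.14 (S25) and 0.39 (S23), against -0.38 to 6.70 for WRKY1-a. With each run centred on its own median, WRKY1-a kept a median of 1.80, a spread of 4.70 and 25 arrays above. The 10 nearest spots in the table had medians between -0.15 and 0.11, and none lay to 1 side on 90% of arrays. Correlations of these neighbours with WRKY1-a ran from -0.22 to 0.56.

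The WRKY1 probes did not move together. Over the 10 pairs the mean Pearson r was 0.03, from -0.58 (WRKY1-a and WRKY1-c) to 0.46 (WRKY1-a and WRKY1-b), and 6 pairs were above 0. Among the other 4 probes alone the mean was -0.0020. No pair reached an r of 0.5, where the background was 17.3% of pairs of probes of the same gene, with MNB1b left out. Of 258 genes with at least 2 probes, 165 had a mean r as high as WRKY1 or higher, and the median gene had 0.08.

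The 2 correlations of largest size within WRKY1 both involved WRKY1-a. The r of -0.58 with WRKY1-c had a rho of -0.55, was -0.42 over S1 to S15 and -0.77 over S16 to S27, and was -0.59 without S6 and S19, the arrays farthest out for WRKY1-c. The r of 0.46 with WRKY1-b had a rho of 0.40, was 0.16 over S1 to S15 and 0.71 over S16 to S27, and fell to 0.28 without S19 and S21. WRKY1-b and WRKY1-c had an r of -0.43 that rested on the same arrays and was -0.02 without them.

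**Figure D3:**
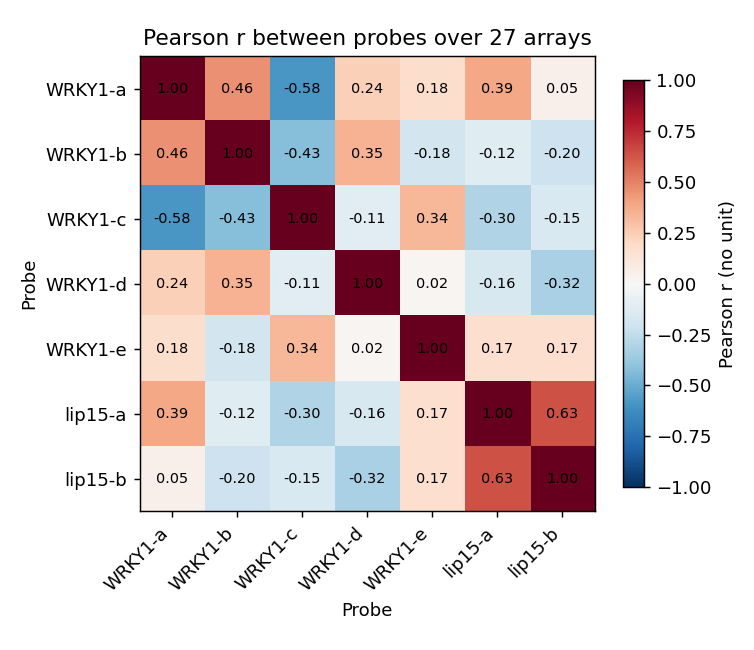
Pearson r over 27 arrays between each pair of the 5 WRKY1 and 2 lip15 probes, on a colour scale from -1 to 1 with the value in each cell. The lip15 pair has the highest value at 0.63, and WRKY1-a with WRKY1-c has the lowest at -0.58.

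The lip15 probes, called lip15-a and lip15-b, had wider spreads over the 27 arrays than the 4 central WRKY1 probes and lay on both sides of the array median. Within S1 to S15 alone lip15-b had 1.17 and WRKY1-e 1.43. The ratio of lip15-a was lowest on S15 at -1.85, had a median of 0.16 and was highest on S20 at 3.07. The ratio of lip15-b was lowest on S16 at -1.38, had a median of -0.05 and was highest on S20 at 4.14. Both were therefore highest on S20. Ratios at least 2-fold from the array median were found on 8 arrays for lip15-a (7 of them above) and on 5 for lip15-b (3 of them above).

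A few arrays carried most of the variation of lip15-b. Of its sum of squared deviations from the probe median, S20 held 59% and S20, S22 and S16 together held 77.8%. For lip15-a, S20 held 25% and S20, S13 and S15 together held 53.5%. WRKY1-a was less concentrated on a single array, with 20.2% on S13 and 53.2% on S13, S8 and S21. lip15-a was in the top 5% of its array on 5 arrays and lip15-b on 1.

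The probes of lip15 agreed more closely than those of most genes. Their Pearson r was 0.63 and their Spearman rho 0.43 over 27 arrays. Of the 112 genes with exactly 2 probes, 4 (lip15 among them) had an r at least as high, and the median of these genes was 0.04. Among genes with at least 2 probes, 6.59% had a mean r of at least 0.5. The r was 0.71 over S1 to S15 and 0.68 over S16 to S27.

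The probes of lip15 nevertheless differed on many arrays. On 15 of 27 arrays both lip15 probes shared a side of the median, 8 times above it and 7 times below. Of the 8 arrays with lip15-a at least 2-fold from the median, 3 (S2, S24 and S27) had lip15-b on the other side. Both were at least 2-fold from it in a shared direction on 3 arrays, namely S13, S15 and S20. On S13 lip15-a had 2.51 and lip15-b had 1.10, and on S15 they had -1.85 and -1.14. On S22 they had 0.99 and 1.91. They differed by at least 1 on 8 arrays, and lip15-a minus lip15-b ran from -1.31 on S21 to 2.15 on S27, with a median of 0.31.

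Without S20 the r of the lip15 pair was 0.47 and the rho 0.36, and without S20 and S13, the arrays farthest out for lip15-a, the r was 0.39. The arrays S15, S20 and S22 were also related over all probes, with an r of 0.55 for S20 and S22 and of -0.43 and -0.44 for S15 with S20 and S22. Without these 3 arrays the lip15 pair had an r of 0.38 and a rho of 0.25. The pair lay in different runs of 400 spots. On S20 the medians of these runs were -0.04 and 0.23, and the probes stood 3.11 and 3.91 above them. With each run centred, the r was 0.58.

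**Figure D4:**
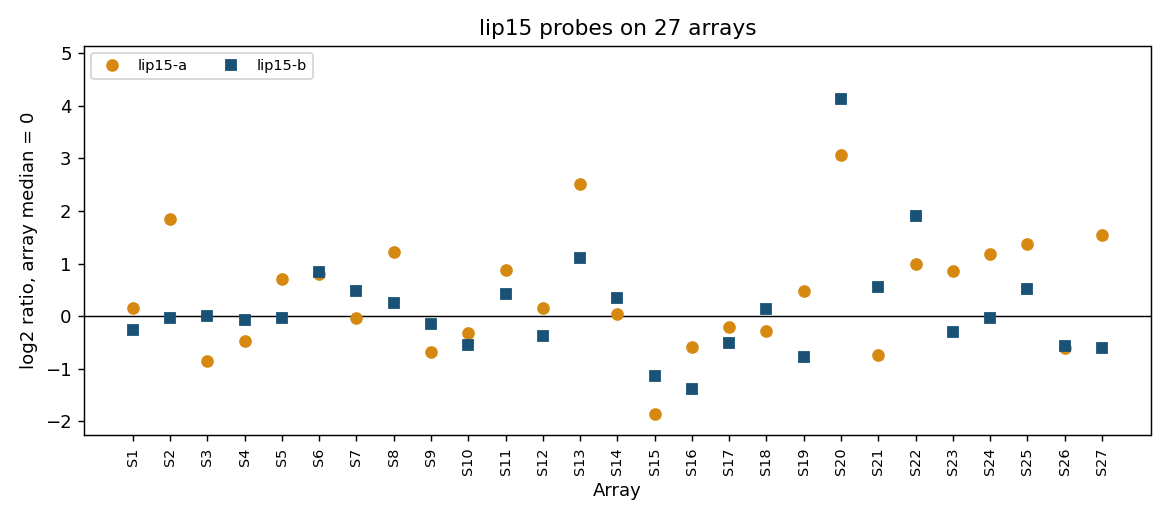
Log2 ratio (array median = 0) of the 2 lip15 probes on each of the 27 arrays. Both are highest on S20 (3.07 and 4.14) and both are low on S15 (-1.85 and -1.14), while on 12 arrays they lie on opposite sides of 0.

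Between the genes, pairs of probes had correlations of both signs. Over the 10 pairs of a WRKY1 and a lip15 probe the mean r was -0.05, from -0.32 (WRKY1-d and lip15-b) to 0.39 (WRKY1-a and lip15-a). The pair of WRKY1-d and lip15-b had an r of 0.51 over S1 to S15 and -0.68 over S16 to S27, and -0.0027 without S20. The pair of WRKY1-a and lip15-a had a rho of 0.39, an r of 0.63 over S1 to S15 and 0.01 over S16 to S27. Without S13 it was 0.28, and without S13 and S8 it was 0.22. The array S13 was the highest for WRKY1-a and the second highest for lip15-a. All 16 arrays with lip15-a above the median had WRKY1-a above it too, as 25 of 27 arrays did.

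The mean of all WRKY1 probes and the mean of the lip15 probes had an r of 0.15 over 27 arrays. It was 0.66 over S1 to S15, -0.32 over S16 to S27, and -0.18 without WRKY1-a. Without S20 it was 0.38, and without S13 it was 0.0049. No direction of a relation between the genes can be read from values that turn with the arrays used.

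The genes most like each profile were sought among 1379 probes of other genes, as the 3 with the highest Pearson r over 27 arrays. For WRKY1-a they were TUBB2, a beta-tubulin, at 0.74, TCTP, the translationally controlled tumour protein, at 0.72, and rpl39 (LOC542444), a ribosomal protein, at 0.70. All 3 had an r of at least 0.68 in both sets of arrays taken alone. They had been picked over these same arrays, so this is no separate check. Each had further probes that did not follow WRKY1-a, with an r of 0.21 for the other TUBB2 probe and median values of -0.31 over 12 for TCTP and 0.12 over 4 for rpl39. Their own medians ran from 0.12 to 0.33, and their spreads from 1.12 to 1.73.

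For the mean of the other 4 WRKY1 probes, the most like were LOC542221 (sir), a sulfite reductase, at 0.69, LOC100037748 (elfa2), an elongation factor, at 0.67, and mbd115, named for a methyl-CpG-binding domain, at 0.66. The r of elfa2 was 0.90 over S1 to S15 and 0.23 over S16 to S27, and that of mbd115 was 0.86 and 0.07. These likenesses therefore held mainly in S1 to S15, whereas sir had 0.76 and 0.54.

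For the mean of the lip15 probes the most like were LOC541886 (PIP1-3), a plasma membrane aquaporin, at 0.82, LOC542476 (apx), an ascorbate peroxidase, at 0.80, and Cab-m7, a chlorophyll-binding protein of the light-harvesting antenna, at 0.78. All 3 were high on S20, with 4.62, 2.93 and 4.55, and on S22, with 4.17, 1.94 and 4.08. They were low on S15, with -2.28, -1.06 and -1.68. Without S15, S20 and S22 their r with lip15 was 0.62, 0.46 and 0.51. The other probes of PIP1-3 and apx did not follow lip15, with a median r of -0.12 over 5 and -0.21 over 4.

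Other bZIP genes had 7 probes of 3 genes, of which 4 (57.1%) had a spread of at least 1, against 79.2% of all probes and 65% of those with 1 gene. Their median spread was 1.08, against 1.54 and 1.17. The widest were ohp2 (LOC542237) at 2.85 and ohp1 (LOC542704) at 2.55, both opaque2 heterodimerizing proteins, and OBF1, a bZIP factor, at 1.43. With the mean of the lip15 probes, the ohp2 probe had an r of 0.66, and the 2 probes of ohp1 had 0.38 and 0.49. The 4 OBF1 probes had 0.08, -0.58, -0.01 and -0.25. No other WRKY gene had a probe with a gene name. None of these bZIP probes lay to 1 side of the median on 90% of arrays.

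Genes of cold, drought and abscisic acid responses had 8 probes of 5 genes, of which 7 (87.5%) had a spread of at least 1, with a median of 1.44. The widest were the pair of probes of dbf1 (LOC542569), a drought-linked factor of the AP2 family, at 3.36 and 3.09, and adh1 (LOC542363), an alcohol dehydrogenase known from the response to low oxygen, at 1.61. The dbf1 probes had an r of 0.10 and 0.76 with the mean of lip15, and the 8 probes ran from -0.40 (dhn2, a dehydrin) to 0.76 with a median of -0.0029. Defence genes had 6 probes of 5 genes with a median spread of 2.89, and 5 of them (83.3%) had a spread of at least 1. Their r with lip15 ran from -0.35 to 0.03. All these shares stand against the same 79.2% and 65%, and nothing particular to a list is read from them. Their widest were opr7 at 3.32 and opr8 at 2.95, both oxophytodienoate reductases, and pr5 (LOC542720) at 2.89. The probes of opr7 and opr8 held an array's repeated value on 5 and 7 arrays.

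A name search for other transcription factors matched 37 probes of 22 genes. Of these probes 29 (78.4%) had a spread of at least 1, against 79.2% of all probes and 65% of those with 1 gene. Nothing particular to the list is read from this share. The median spread of these probes was 1.58, against 1.54 and 1.17. Their r with lip15 ran from -0.55 to 0.75. It also took probes of genes known for other roles, such as the haemoglobin GLB1 and a MAP kinase (LOC541618). The widest were tbp1 (LOC542240), a TATA-binding protein, at 6.60, and the MADS-box genes ZAG1 (LOC542244) at 5.68 and bde1 (LOC542256) at 4.98. Their r with WRKY1-a was -0.0025, 0.13 and 0.08. WRKY1-a had a spread of 4.99, close to that of bde1. The probes of tbp1 and ZAG1 held an array's repeated value on 5 and 13 arrays. On the arrays where they did not, tbp1 lay above the median on 10 of 22 and ZAG1 on 8 of 14, and bde1 did so on 18 of 26.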

How the data were processed

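The authors deposited 1 value per spot and array in a table of 19200 spots, of which 897 were empty. The values were read as natural log ratios of Cy3 and Cy5 channels deposited by the authors. The base was inferred. Among values that recur 3 times or more within an array, 106 pairs differed by 2 times ln(k), where k is a whole number from 2 to 10 (tolerance 2e-05), against 5.17 pairs at shifted distances. For bases 2 and 10 the pairs were 3 against 4 and 20 against 20.3. Only these bases were compared, at that multiple. Whether the deposited values are 2 times a natural log ratio was not tested. The log2 scale, all folds and the spread limit of 1 therefore rest on the inferred base and on that reading. The scanner, any background correction and any normalization are not given in the sources consulted. Division by ln(2) put them on the log2 scale, and each array was centred on its median. No signal was used, so precision is limited by the number of arrays, 27, and of the 9 replications whose RNA pools they share. Runs of 400 spots were taken because 83.3% of empty spots recur at that distance.

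Names came from the platform's table (1607 probes with 1 gene, 532 genes) and RefSeq's Zm-B73-REFERENCE-NAM-5.0, which held 515 of these genes. All member probes were named, with the 3 most similar probes of other genes, MNB1b excluded, and the 3 widest of each gene list. MNB1b was also left out of the backgrounds within genes (258 and 107 genes), but not of the 1607 probes. Members and lists were chosen with earlier results of these data known. No group could be formed, so no test was run. Functions were checked on simulated data. Python 3.11.15, pandas 2.3.3 and numpy 2.4.6 were used. Alternatives were other centring, scaling, block centring, repeated values as missing, subsets of arrays, measures of spread and correlation, and each array left out.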

Additional observations from a re-analysis of the deposited data

How the results depend on the processing

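A value was taken as moved when it changed by over 1.5 times or, for a correlation, by over 0.2. Apart from left-out arrays and the alternatives named below as added, 45 values stayed within these limits, 6 moved and 6 changed sign. The 45 include those with repeated values as missing, which could not change because no member held such a value. The mean r of WRKY1 pairs turned to -0.0049 with rescaled arrays, -0.0043 with centred blocks, -0.036 within S16 to S27 and -0.0020 without WRKY1-a, all near its value of 0.03. The r between the gene means turned to -0.32 within S16 to S27 and -0.18 without WRKY1-a, and was 0.66 within S1 to S15. WRKY1-a had a median of 1.14 within S1 to S15. It lay above on 12 of 12 arrays within S16 to S27, against 25 of 27 over all arrays. That count is among the 6 moved, although the share of arrays did not change by over 1.5 times. With the interquartile range the spread of WRKY1-a was 3.09 and 2 members reached 1, stricter by construction. The lip15 r was 0.43 as Spearman's rho. Without S15, S20 and S22, chosen after seeing the data, the lip15 r was 0.38 and that of the gene means 0.54, and a correlation about 0, also added later, changed no sign. The cause of these changes was not tested.

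With an array left out, the spread of WRKY1-a ran from 4.33 to 5.13, its median from 1.77 to 1.96 and its arrays above from 24 to 25, and the same 4 members had a spread of at least 1 each time. The mean r of WRKY1 pairs ran from -0.014 to 0.088, that of lip15 from 0.47 to 0.68, and that of the gene means from 0.0049 to 0.38. No paired analysis was possible because the arrays have no groups. Signal over background was not used, so how far dim spots limit these ratios was not measured.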

Other observations

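The ratios of WRKY1-a on the arrays formed a graded series with no wide gap below its top. From the lowest, S4 had -0.38, S10 -0.15, S22 0.25, S5 0.37, S7 0.57, S17 0.64, S9 0.74, S26 0.75 and S6 0.93 on the log2 scale. The middle of the series was S12 at 1.09, S15 at 1.14, S20 at 1.66, S18 at 1.70, S16 at 1.84, S3 at 2.09, S1 at 2.45 and S2 at 2.56. The upper arrays were S24 at 3.13, S25 at 3.30, S11 and S14 at 3.83, S27 at 4.21, S19 at 4.50 and S23 at 4.77. The widest gap between neighbours, 1.34, separated S23 from the top arrays S21 at 6.11, S8 at 6.37 and S13 at 6.70. The 3 top arrays had interquartile ranges of 1.21, 0.62 and 1.02, against a median of 0.75 over arrays, so 1 of them was narrower than the middle array. The array S1, whose Cy3 channel is labelled F1, lay at 2.45 for WRKY1-a, 0.16 for lip15-a and -0.26 for lip15-b.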
